A study of Mus musculus with 196 samples.

Results

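The cells described here were mouse primordial germ cell-like cells (PGCLCs) that lacked Stra8 and were given BMP2 and retinoic acid (RA) together, a treatment labelled B2RA, or were kept as controls. They were chosen by label as every library of the Stra8 knockout clones B6 and F6 with either treatment, at culture days 4, 5, 7 and 9, which gave 32 of the 196 samples of the series. Each of the 2 clones had 2 replicates per treatment and day, so each treatment had 4 libraries at each day. The B2RA and the control cells shared the genotype Prdm1-mVenus Tg/0, Dppa3-ECFP Tg/0 and Stra8-/-, and the strain 129S1:C57BL/6=1:1. PGCLCs are induced in vitro from epiblast-like cells, which are themselves made from embryonic stem cells. Here they were sorted for the Prdm1 reporter 4 days after induction, cultured on m220 feeder cells that carry membrane-bound stem cell factor, and sorted again for the Dppa3 reporter before RNA was taken. Day 9 libraries of Zglp1 knockout clones E5 and G10 (B2RA and control, 2 each per clone, Zglp1-/- on the same reporters and strain) and of the parental line H18 (B2RA only, 2 libraries, no knockout) served as references. The stage label of the H18 libraries gives day 3.5 where their titles give day 9, and the titles were used. The doses of the agents and the day they were added are not given in the sources used here. Neither is the deleted part of Stra8, or whether replicates were separate cultures. The p-values of the main model therefore reflect only how far replicates of one clone, treatment and day differed. That error was pooled over 191 PGCLC libraries in 98 groups, which include other lines of the series. Variation from clone to clone does not enter it.

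BMP ligands act through SMAD proteins, and the Id genes, which encode inhibitors of helix-loop-helix factors, are among their most direct targets. RA enters the nucleus, binds RA receptors that sit on repeated half-sites in DNA, and switches on genes such as Rarb and Cyp26a1, which encode an RA receptor and an enzyme that breaks RA down. In the fetal ovary both signals precede the entry of germ cells into meiosis. STRA8 is a transcription factor that acts with MEIOSIN to raise meiotic genes at that step, and ZGLP1 is a GATA-like factor linked to the oogenic fate. Meiotic prophase then needs cohesins with meiotic subunits such as REC8, the synaptonemal complex that holds paired chromosomes together, and the enzymes that cut and repair DNA to make crossovers.

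Promoter sequences of 5 genes named in the results below are shown first, as examples that hold the motifs marked. Each is the 250 bases before the start of the gene from RefSeq on GRCm38.p6, 5′ to 3′ on the strand of the gene. In the first pair, capitals mark GTTCA followed by any 6 bases and GTTCA again, a direct repeat of the kind RA receptors bind, searched on both strands. Capitals mark CACGTG, an E-box that reads alike on both strands, in the other sequences. Rarb lies at chr14:16575477-16575726 (- strand), with the repeat 52 to 37 bases before the start. Cyp26a1 lies at chr19:37697558-37697807 (+ strand), with the repeat on the opposite strand 32 to 17 bases before the start. Sycp3, which encodes a lateral element protein of the synaptonemal complex, lies at chr10:88459337-88459586 (+ strand). Taf7l, which encodes a germ cell form of a general transcription factor subunit, lies at chrX:134476491-134476740 (- strand), and Slc25a31, which encodes a germ cell carrier of ADP and ATP in mitochondria, lies at chr3:40708621-40708870 (+ strand).
Rarb: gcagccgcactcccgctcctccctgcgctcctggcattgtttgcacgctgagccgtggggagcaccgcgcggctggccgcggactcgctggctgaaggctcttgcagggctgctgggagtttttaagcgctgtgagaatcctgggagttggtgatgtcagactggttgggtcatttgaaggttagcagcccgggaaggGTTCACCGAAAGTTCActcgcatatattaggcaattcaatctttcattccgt
Cyp26a1: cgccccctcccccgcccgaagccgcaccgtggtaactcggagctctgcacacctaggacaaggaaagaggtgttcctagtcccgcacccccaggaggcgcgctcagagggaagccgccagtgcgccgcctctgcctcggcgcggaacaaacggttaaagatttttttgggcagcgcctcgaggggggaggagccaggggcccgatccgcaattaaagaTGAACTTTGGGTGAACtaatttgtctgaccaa
Sycp3: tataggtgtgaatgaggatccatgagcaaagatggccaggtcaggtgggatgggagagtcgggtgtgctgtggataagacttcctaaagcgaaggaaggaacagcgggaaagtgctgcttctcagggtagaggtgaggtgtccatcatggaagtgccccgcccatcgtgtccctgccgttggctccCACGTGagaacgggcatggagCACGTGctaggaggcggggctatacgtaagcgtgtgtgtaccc
Taf7l: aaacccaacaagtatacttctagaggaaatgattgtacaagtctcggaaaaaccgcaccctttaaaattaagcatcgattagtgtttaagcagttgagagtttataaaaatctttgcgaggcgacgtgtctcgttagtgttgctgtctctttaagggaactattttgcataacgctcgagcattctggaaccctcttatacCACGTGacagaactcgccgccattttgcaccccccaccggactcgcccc
Slc25a31: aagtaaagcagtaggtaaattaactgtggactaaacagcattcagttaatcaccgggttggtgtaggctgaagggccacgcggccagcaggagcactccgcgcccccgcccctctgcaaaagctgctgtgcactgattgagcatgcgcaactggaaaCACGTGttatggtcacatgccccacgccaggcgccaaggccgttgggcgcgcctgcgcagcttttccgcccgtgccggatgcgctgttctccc

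The repeat was present in 20 (0.074%) of 27025 RefSeq promoters of 300 bases, which also take in 50 bases after the start, and in 3 (0.0397%) of the 7553 promoters of tested genes. Both Rarb and Cyp26a1 were among the 19 genes called higher at day 4, of which 10 had a promoter in the table. CACGTG was present in 7.24% of all promoters, in 11.2% of those of tested genes, in 12.2% of those of genes called higher at day 9 and in 13.2% of those called lower. Among germline genes known to be silenced by DNA methylation, 10 of the 19 with a promoter (52.6%) held it. In the synaptonemal complex list 5 of 10 held CACGTG, and 1 of 4 meiotic cohesin genes did. The promoters of Rec8 and Sycp2, which also rose late, were without it, so the genes shown do not stand for all late genes. CNCCTCAG, a motif reported at promoters bound by STRA8 and MEIOSIN, was present in 9.48% of promoters of tested genes, in 12.3% of those of genes called higher at day 9 and in 10.4% of those called lower. A match describes the letters only, and binding was not measured here.

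The values are RPM (reads scaled to the library total) of 3' end libraries amplified from 1 ng of total RNA. The 32 libraries held 1241239 to 3088070 reads, so 1 read was worth 0.324 to 0.806 RPM, and 13708 to 16495 genes were detected. The Pearson correlation between replicates was 0.942 to 0.981 over genes. Germ cell markers were present in every library. Dppa3 was at 847, 1067, 951 and 896 RPM in B2RA cells and 924, 1024, 964 and 985 RPM in control cells at day 4. Values of 4 libraries are given here and below as clone B6 replicates 1 and 2 and then clone F6 replicates 1 and 2. Feeder and stroma markers were present too. The summed level of the 20 marker genes was 634 to 1406 RPM in B2RA cells and 1045 to 1856 RPM in control cells at day 9, of which Fn1 and Sparc gave the most, while Thy1 and Lum were at most 3.91 and 2.18 RPM in any of the 32 libraries. In bulk samples fewer cells of a type and less RNA per cell cannot be told apart. One limma model on log2(RPM + 1) gave every change and adjusted p below (Benjamini-Hochberg over all tested genes). Calls required an adjusted p under 0.05 and a log2 change of 1 or more in size, and 10544 genes with 10 RPM in at least 2 of the 32 libraries were tested. Changes are B2RA minus control, with the standard error after the ± sign. The pseudocount of 1 understates the change of low genes.

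Stra8 itself gave reads in these knockouts, in B2RA cells above all. Stra8 (gene ID 20899, chromosome 6, + strand) was at 9.29, 8.62, 0 and 0 RPM in B2RA cells and 0.435, 2.5, 0 and 0 RPM in control cells at day 4. At day 9 it was at 423, 688, 52.7 and 67 RPM in B2RA cells and 1.91, 25.9, 1.78 and 1.42 RPM in control cells, a change of 5.24 ± 0.49 (adjusted p = 9.17e-16). Both B6 libraries with B2RA stood above both F6 libraries at each of the 4 days, and the treatments did not overlap within either clone from day 5 on. The difference between the clones in the day 9 response was 1.39 (adjusted p = 1). A 3' tag outside the deleted stretch does not check the knockout, and in H18 cells with B2RA the gene was at 658 and 805 RPM at day 9. Zglp1, the GATA-like factor after which the series is named, was called higher at every day sampled. It was at 6.96, 9.75, 13 and 9.33 RPM in B2RA cells and 0.435, 0, 3.15 and 4.63 RPM in control cells at day 4 (change 2.13 ± 0.35, adjusted p = 5.34e-05). At day 9 it was at 79.7, 27.9, 56.4 and 36.8 RPM in B2RA cells and 5.33, 8.75, 2.14 and 2.84 RPM in control cells (change 3.18 ± 0.35, adjusted p = 7.31e-13). The groups did not overlap at either day, and none of the 4 clone differences for Zglp1 was called.

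The number of genes called rose with each day sampled. At day 4 limma called 21 genes (0.199% of those tested), 19 higher (0.18%) and 2 lower (0.019%) in B2RA cells. At day 5 it called 58 (0.55%), 45 higher (0.427%) and 13 lower (0.123%). At day 7 it called 998 (9.47%), 769 higher (7.29%) and 229 lower (2.17%). At day 9 it called 2193 (20.8%), 1618 higher (15.3%) and 575 lower (5.45%), and these shares are the background for the counts of list members below. A list member that reached the filter only through B2RA libraries had to be higher in them, so counts over such members support no direction. This held for 4 of 7 tested meiotic entry regulators, 1 of 4 cohesins, 4 of 10 synaptonemal complex genes, 4 of 4 genes of break formation and 2 of 9 of strand exchange. It also held for 4 of 6 crossover factors, 4 of 5 telomere genes, 5 of 21 silenced germline genes, 2 of 7 early oocyte regulators, 10 of 15 retinoid genes, 4 of 14 BMP genes, 5 of 6 mesoderm and endoderm genes and 2 of 3 gonadal soma markers. The other lists described had at most 2 such members. Of the 1618 genes higher at day 9, 16 were first called at day 4, 22 at day 5, 643 at day 7 and 937 at day 9. Of the 575 lower genes, 1 was first called at day 4, 8 at day 5, 184 at day 7 and 382 at day 9. The later calls did not start from 0. Genes called higher at day 9 had median changes of 0.11, 0.21, 0.90 and 1.46 at days 4, 5, 7 and 9, and the lower genes had median changes of -0.12, -0.29, -0.83 and -1.40. The excess of higher calls at day 9 depended on scaling. The median over all tested genes was 0.22 on RPM and -0.05 with TMM factors, and the split became 1067 higher and 959 lower with TMM factors and 1222 and 958 with edgeR on the recovered reads. Without B6 B2RA replicate 1 the count fell to 8 at day 4 and to 35 at day 5, and edgeR on the recovered reads called 99 at day 5.

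**Figure D1:**
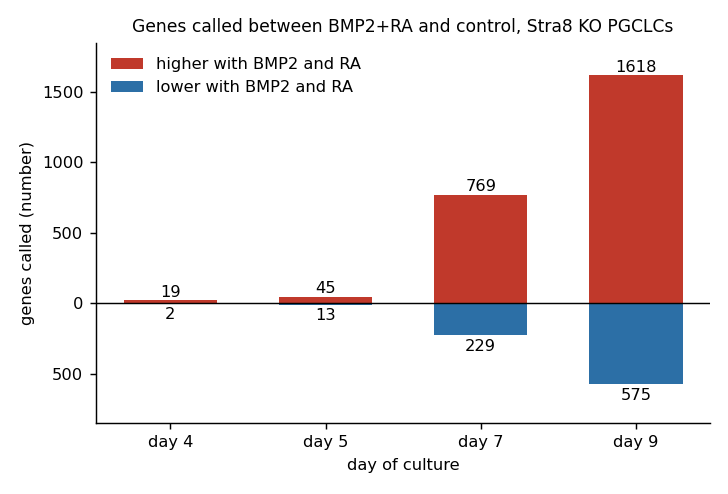
Number of genes called higher and lower in B2RA than in control Stra8 knockout cells at culture days 4, 5, 7 and 9 (x axis, day; y axis, number of genes of 10544 tested), with higher calls as red bars above 0 and lower calls as blue bars below it. Higher calls numbered 19, 45, 769 and 1618, and lower calls 2, 13, 229 and 575.

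BMP and RA targets were among the 19 genes that rose at day 4. Id1 was at 49.8, 60.0, 57.4 and 39.6 RPM in B2RA cells and 7.39, 2.15, 4.49 and 3.7 RPM in control cells at day 4. Every B2RA library was several times above every control library, and the change of 3.35 ± 0.40 was the largest at that day among named genes (adjusted p = 6.13e-09). Id2 was at 26.2, 27.4, 25.7 and 21.8 RPM in B2RA cells and 8.69, 6.44, 5.84 and 5.09 RPM in control cells (change 1.82 ± 0.37, adjusted p = 0.00303). Id3 was high in both treatments at that day, at 332, 339, 417 and 451 RPM in B2RA cells and 243, 196, 252 and 241 RPM in control cells, and its change of 0.71 ± 0.26 was not called. Cyp26a1 was at 26.5, 12.4, 9.37 and 7.38 RPM in B2RA cells and 1.3, 0.716, 2.25 and 1.39 RPM in control cells (change 2.51 ± 0.44, adjusted p = 0.000217). Rarb was at 8.95, 6.37, 3.26 and 6.99 RPM in B2RA cells and 0, 1.07, 0.899 and 0.463 RPM in control cells (change 2.19 ± 0.46, adjusted p = 0.0046). The groups did not overlap for either of these RA targets, whose promoters are shown above. The Rarb call was lost when any of 4 libraries was left out, among them B6 control replicate 1, where the adjusted p was 0.143.

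Other genes rose at day 4 too. Dusp9, which encodes a phosphatase of MAP kinases, was at 235, 202, 169 and 154 RPM in B2RA cells and 47.4, 40.8, 37.8 and 47.2 RPM in control cells (change 2.1 ± 0.27, adjusted p = 4.63e-08). Mdk, which encodes the growth factor midkine and was first found as an RA-induced gene, was at 352, 395, 299 and 339.6 RPM in B2RA cells and 103, 75.1, 74.6 and 72.2 RPM in control cells (change 2.09 ± 0.27, adjusted p = 4.63e-08). Both were well apart in the 2 treatments and both stayed called at day 9, with changes of 1.86 and 2.58. The imprinted gene Phlda2 changed by 2.12 ± 0.44 (adjusted p = 0.0046), but edgeR gave it an adjusted p of 0.0633 and leaving out any of 3 libraries ended its call. Cd97, which encodes an adhesion receptor, was called at days 4 and 5 but not later, which alone does not show a decline. It was at 43.1, 57, 48.1 and 58.7 RPM in B2RA cells and 13.5, 12.5, 21.6 and 16.2 RPM in control cells at day 4 (change 1.66, adjusted p = 0.000239). Its change was 1.55 at day 5, also called, and 0.82 at day 7 and 0.32 at day 9, neither called. The lower genes at day 4 were Ap2s1, which encodes a subunit of the clathrin adaptor complex, and Otoa. Ap2s1 was at 47.1, 51.4, 44.4 and 52.5 RPM in B2RA cells and 147, 95.5, 102 and 109 RPM in control cells (change -1.18 ± 0.19, adjusted p = 2.43e-05), with no overlap, and was called again at day 7 (-1.5) but not at day 9 (-0.57). Otoa, which encodes an inner ear protein, changed by -1.72 at day 4 and stayed lower at the later days. It is outside the rule for named genes and was picked after its values were seen, as the other of 2 lower genes.

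Over time the BMP list widened from Id genes to SMAD genes and homeobox genes. Of its 14 tested members 2, 3, 8 and 12 were called higher at days 4, 5, 7 and 9 and none lower, with medians of 0.76, 0.76, 1.29 and 2.27, against 0.03, 0.00, 0.10 and 0.22 over all tested genes. The filter was reached only through B2RA libraries by 4 of the 14. With TMM factors at day 9 the list had 10 higher members and 1 lower. Id1 reached 449, 372, 623 and 710.5 RPM in B2RA cells, against 16.4, 9.94, 7.12 and 7.1 RPM in control cells, at day 9 (change 5.63 ± 0.40, adjusted p = 3.51e-22). Id3 was at 702, 508, 791 and 849 RPM in B2RA cells and 121, 50.5, 117 and 70.0 RPM in control cells (change 3.04 ± 0.26, adjusted p = 7.57e-18). In the Id3 controls the level at day 9 was below that at day 4 in every library, and its response at day 9 exceeded that at day 7 by 1.99 (adjusted p = 0.00015). Smad6, an inhibitor of BMP signalling that BMP itself induces, changed by 1.58 at day 7 and 2.21 at day 9. Smad9, a SMAD of the BMP branch, was at 21.6, 17.5, 14.3 and 14.3 RPM in B2RA cells and 0.381, 0, 0 and 0.71 RPM in control cells at day 9 (change 3.83 ± 0.35, adjusted p = 7.85e-17). Msx1 changed by 2.82, Gata2 by 2.32 and Gata3 by 1.84 at day 9, all called. The calls of Bambi and Smad7 fell below a change of 1 with TMM factors and with edgeR. Id4 and Hey1 were not called, with changes of 0.59 and -0.92.

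Of the 15 tested retinoid genes 2, 4, 9 and 12 (11 with TMM factors) were called higher at days 4, 5, 7 and 9 and none lower. The list had medians of 0.61, 0.84, 1.45 and 2.13. Of the 15, 10 reached the filter only through B2RA libraries, so these counts and medians support no direction for the list. Rarb stayed near its day 4 change throughout, with changes of 2.19, 2.36, 2.0 and 2.66 at the 4 days. Cyp26a1 had changes of 2.51, 2.96, 3.06 and 4.1, and was at 38.9, 70.7, 30.4 and 87.9 RPM in B2RA cells and 4.57, 0.398, 3.92 and 1.42 RPM in control cells at day 9. No change between days was called for either gene. Dhrs3, whose enzyme turns retinal back to retinol, changed by 3.19 at day 9, and Stra6, the retinol uptake receptor, by 2.27. The receptor genes Rara and Rarg changed by 1.78 and 1.48. The Crabp2 call fell below a change of 1 with TMM factors and edgeR. Crabp1, Cyp26b1 and Nrip1 were not called at any day. The transglutaminase gene Tgm2, a known RA target, was at 57.7, 52.8, 51.3 and 36.8 RPM in B2RA cells and 6.48, 5.57, 5.7 and 7.81 RPM in control cells at day 9, well apart (change 2.77 ± 0.39).

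Genes of meiotic entry and chromosome structure followed, mostly from day 7. All 7 tested regulators of meiotic entry were called higher at day 9, after 1, 2 and 5 of them at days 4, 5 and 7, and their medians were 0.46, 0.61, 1.54 and 3.18. The 7 include Stra8 itself, and 4 of them reached the filter only through B2RA libraries. These counts and medians therefore support no direction for the list. Meioc, whose product works with the RNA helicase YTHDC2 to sustain meiosis, was at 17.1, 17.1, 22.1 and 20.7 RPM in B2RA cells and 0.347, 0.564, 1.67 and 0.352 RPM in control cells at day 7 (change 3.6 ± 0.46). It was at 56.1, 70.3, 40.6 and 88.7 RPM in B2RA cells and 0, 1.99, 0.356 and 3.2 RPM in control cells at day 9 (change 4.94 ± 0.46, adjusted p = 2.77e-16). No B2RA library overlapped a control library at either day. Dazl, which encodes an RNA-binding protein that makes germ cells competent for meiosis, was already present in controls. It was at 689.7, 548, 559.9 and 994 RPM in B2RA cells and 187, 135, 119 and 159.8 RPM in control cells at day 9 (change 2.19 ± 0.34). Ccnb3, a cyclin gene, had 109 reads over the 4 B2RA libraries at day 9 and none over the control libraries, so that it was at least 38-fold higher against a floor of 3 reads over the group. Meiosin, the STRA8 partner, was too low to be tested. It was at 5.1, 6.11, 4.39 and 4.78 RPM in B2RA cells and 0, 0, 0 and 0.355 RPM in control cells at day 9, only a few reads in any library.

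All 4 meiotic cohesin genes were called higher at day 9 and 3 of them at day 7. The filter was reached only through B2RA libraries by 1 of the 4. Rec8, the meiotic kleisin, was at 17.6, 13.1, 20.4 and 17.9 RPM in B2RA cells and 13.5, 15.4, 14.8 and 12 RPM in control cells at day 4, where it was not called. It was at 184, 156, 246 and 197 RPM in B2RA cells and 14.6, 35.5, 20.9 and 24.3 RPM in control cells at day 7 (change 3.03 ± 0.30, adjusted p = 4.93e-13). At day 9 it was at 537, 540.1, 554 and 643 RPM in B2RA cells and 36.2, 40.6, 23.1 and 28.1 RPM in control cells (change 4.14 ± 0.30, adjusted p = 7.59e-22). The 4 B2RA libraries were close to each other and far above the controls at both later days. Its response at day 7 exceeded that at day 5 by 2.28 ± 0.43 (adjusted p = 0.00183), so the step between those days was itself called. The other cohesin genes, Stag3, Smc1b and Rad21l, changed by 2.09, 2.26 and 3.09 at day 9.

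Of the 10 genes of the synaptonemal complex and its axis, 8 were called higher at day 9 and 6 at day 7. The filter was reached only through B2RA libraries by 4 of the 10, and counts over those support no direction. Sycp3 was at 64.1, 148, 64.3 and 75.1 RPM in B2RA cells and 19.5, 24.8, 20.0 and 18.6 RPM in control cells at day 7 (change 1.95 ± 0.36). At day 9 it was at 379, 335, 209 and 317 RPM in B2RA cells and 15.6, 25.9, 9.97 and 47.6 RPM in control cells (change 3.78 ± 0.36, adjusted p = 1.83e-15). Sycp2, the partner of SYCP3 in the lateral element, was at 88.3, 102, 84.2 and 81.7 RPM in B2RA cells and 0.381, 1.19, 0 and 0.71 RPM in control cells at day 9 (change 5.89 ± 0.41). The control libraries held almost no Sycp2 reads, and the B2RA libraries were near one another. Tex12, which encodes a central element protein, was at 161, 161, 135 and 169 RPM in B2RA cells and 1.14, 3.58, 0.712 and 4.97 RPM in control cells (change 5.63 ± 0.38). Sycp1, the transverse filament gene, changed by 4.54. Syce2 and Hormad2 were not called, with changes of 0.42 and 0.55.

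**Figure D2:**
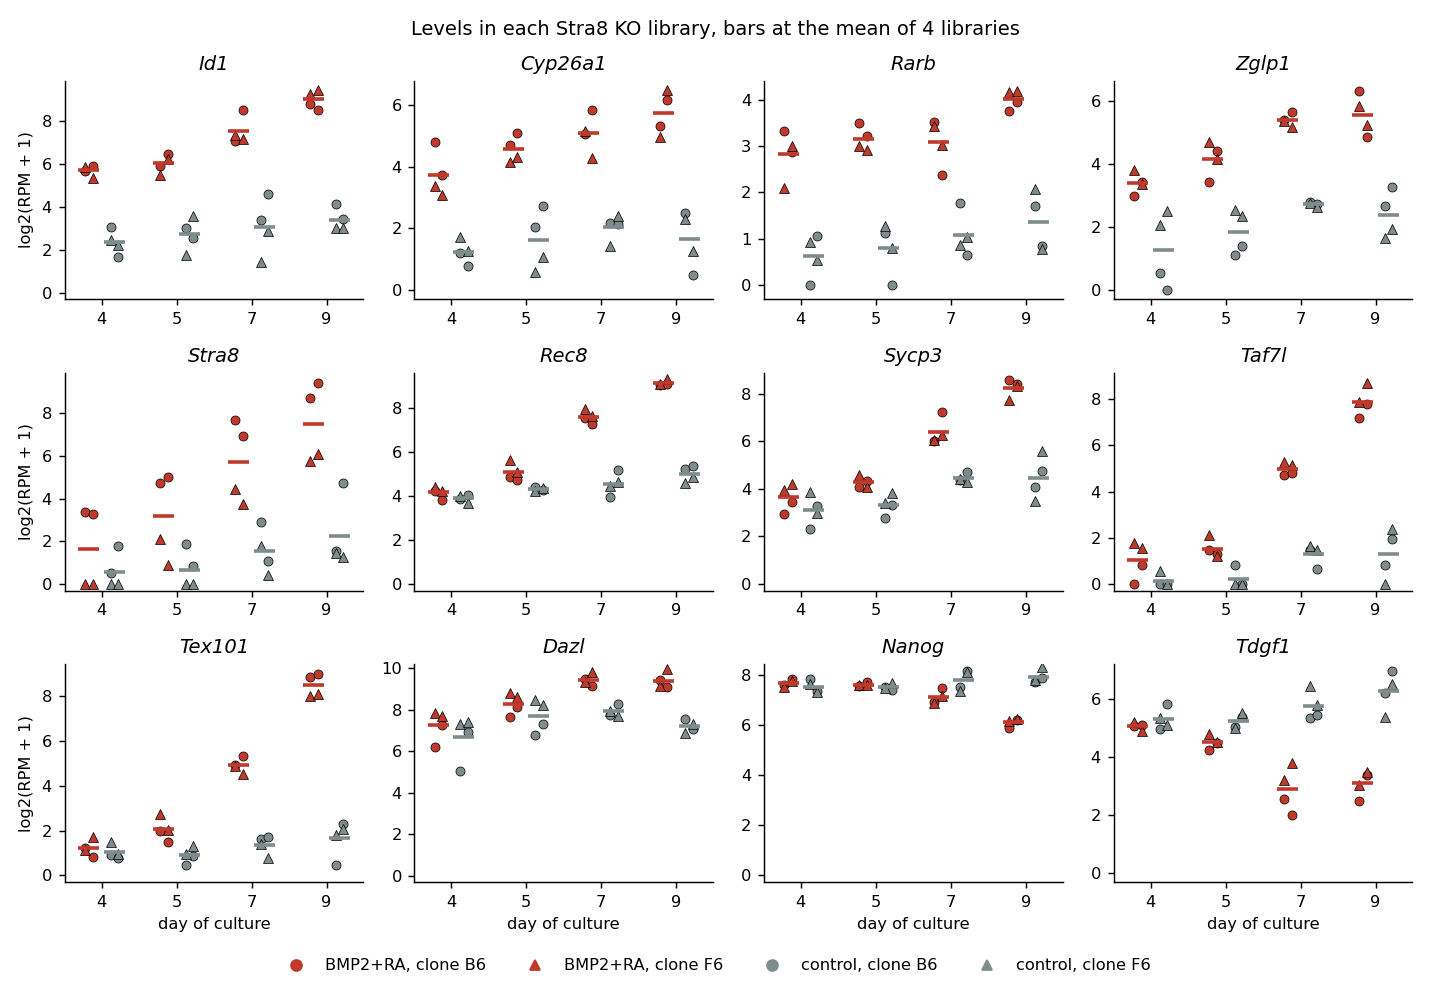
RPM levels on a log2(RPM + 1) axis (y) by culture day (x) for selected genes in B2RA and control Stra8 knockout libraries, 1 point per library with clone B6 as circles, clone F6 as triangles and short bars at the mean of the 4 libraries. Id1 and Cyp26a1 were apart at day 4, whereas Rec8 and Sycp3 parted at day 7.

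Genes for cutting and repairing DNA rose less evenly. Of the tested genes of break formation 4 of 4 were called higher at day 9, and of strand exchange 5 of 9 (4 with TMM factors). Of crossover formation 4 of 6 were higher, of the tethering of telomeres to the nuclear envelope 4 of 5, and none was lower. In that order 4 of 4, 2 of 9, 4 of 6 and 4 of 5 reached the filter through B2RA libraries alone. Counts and medians over such members support no direction. The medians of these lists at day 9 were 2.89, 1.16, 1.97 and 2.38, and at day 4 they were -0.04, 0.09, 0.26 and 0.11. Spo11, whose product cuts DNA in meiosis, was at 35.7, 34.5, 43.9 and 23.9 RPM in B2RA cells and 4.95, 0.398, 3.56 and 4.26 RPM in control cells at day 9 (change 3.21 ± 0.43, adjusted p = 1.24e-09), without overlap. Mei1, which is needed for those breaks, was at 39.6, 50.6, 21.2 and 22.8 RPM in B2RA cells and 0, 1.19, 0.356 and 0 RPM in control cells (change 4.63 ± 0.34). Prdm9, which encodes the methyltransferase that marks break sites, changed by 2.58. Dmc1, the meiotic recombinase, changed by 1.66 ± 0.32, and Tex15, which is needed to load it, by 4.08 ± 0.26. Rnf212, which encodes a crossover factor, was at 26.3, 35.4, 27.8 and 22.1 RPM in B2RA cells and 0, 1.19, 0 and 0 RPM in control cells (change 4.55 ± 0.40). Spata22 had 100 reads in B2RA libraries and none in control libraries, at least 34.9-fold higher. Mnd1 (0.51), Psmc3ip (-0.08) and Sun1 (0.13) were not called.

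Germline genes that DNA methylation silences in somatic cells rose as well, and Tex101 and Taf7l of this list had the 2 largest changes among named genes. Of 21 such genes, all tested, 0, 0, 15 and 19 were called higher at days 4, 5, 7 and 9 and none lower, with medians of 0.18, 0.37, 1.39 and 2.77. The filter was reached only through B2RA libraries by 5 of the 21. Tex101, which encodes a germ cell surface protein, was at 29.3, 39.6, 29.1 and 22 RPM in B2RA cells and 2.08, 2.26, 1.67 and 0.703 RPM in control cells at day 7 (change 3.55 ± 0.41). It was at 467, 515, 261 and 278 RPM in B2RA cells and 0.381, 3.98, 2.49 and 3.2 RPM in control cells at day 9 (change 6.85 ± 0.41, adjusted p = 1.63e-27). Taf7l was at 145, 224, 233 and 422 RPM in B2RA cells and 0.762, 2.78, 0 and 4.26 RPM in control cells at day 9 (change 6.62 ± 0.41, adjusted p = 2.31e-26). Slc25a31 was at 226, 218, 192 and 239.5 RPM in B2RA cells and 2.67, 5.17, 9.61 and 15.6 RPM in control cells (change 4.79 ± 0.31). In each of these genes the lowest B2RA library was more than 10 times the highest control library at day 9. Genes of the piRNA pathway, which silences transposons, belonged to this list, and Mael, Mov10l1, Asz1 and Tdrd9 changed by 3.78, 3.28, 3.47 and 3.64. Ddx4, the germ cell helicase gene, was at 256, 239.7, 238 and 289.9 RPM in B2RA cells and 31.2, 31.8, 43.4 and 41.2 RPM in control cells (change 2.77 ± 0.23). Rpl10l (0.91) was not called, and Tdrd12 (-0.89) was not called on RPM but was called lower with TMM factors. Genes for the repressor complex PRC1.6 and other repressors of meiotic genes were not called in either direction among 13 tested (1 lower with TMM factors). Of 9 tested genes of the methylation machinery 2 were lower, Tet1 (-1.26) and Dnmt3l (-1.36), and the Dnmt3l call was lost when any of 6 libraries was left out.

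Early regulators of the oocyte rose, and no late oocyte gene was called on RPM. All 7 tested early regulators were called higher at day 9 and 5 at day 7 (median 1.82 at day 9, 5 higher with TMM factors). The filter was reached only through B2RA libraries by 2 of the 7. Figla, a transcription factor gene for the first steps of follicle formation, was at 2.71, 3.05, 1.82 and 2.91 RPM in B2RA cells and 0.347, 1.13, 0 and 0.352 RPM in control cells at day 7. At day 9 it was at 25.1, 45, 26.7 and 32.8 RPM in B2RA cells and 0.762, 0, 0.356 and 0.71 RPM in control cells (change 4.52 ± 0.37, adjusted p = 1.15e-19), with no overlap, and its response at day 9 exceeded that at day 7 by 3.16 (adjusted p = 1.24e-05). Sohlh1, an oocyte and spermatogonial transcription factor gene, was at 11.4, 3.49, 56 and 50.4 RPM in B2RA cells and 0, 0.398, 0.356 and 0.355 RPM in control cells (change 3.99 ± 0.30). The F6 libraries were above the B6 libraries for Sohlh1, and the clone difference was not called (adjusted p = 0.227). Ybx2 and Cpeb1, regulators of stored oocyte messages, changed by 2.06 and 1.82. Of 15 late oocyte genes, 13 were too low to test. Bmp15, Zp1 and Oosp1 had 0 RPM in all 8 day 9 libraries, where the floor of 3 reads over a group was worth 0.292 RPM in B2RA cells and 0.279 RPM in control cells. The 2 tested late genes, Ooep and Tle6, were not called on RPM (median change -0.23), and 1 was called lower with TMM factors. The summed level of the late list was 146 to 182 RPM in B2RA cells and 179 to 277 RPM in control cells at day 9.

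**Figure D3:**
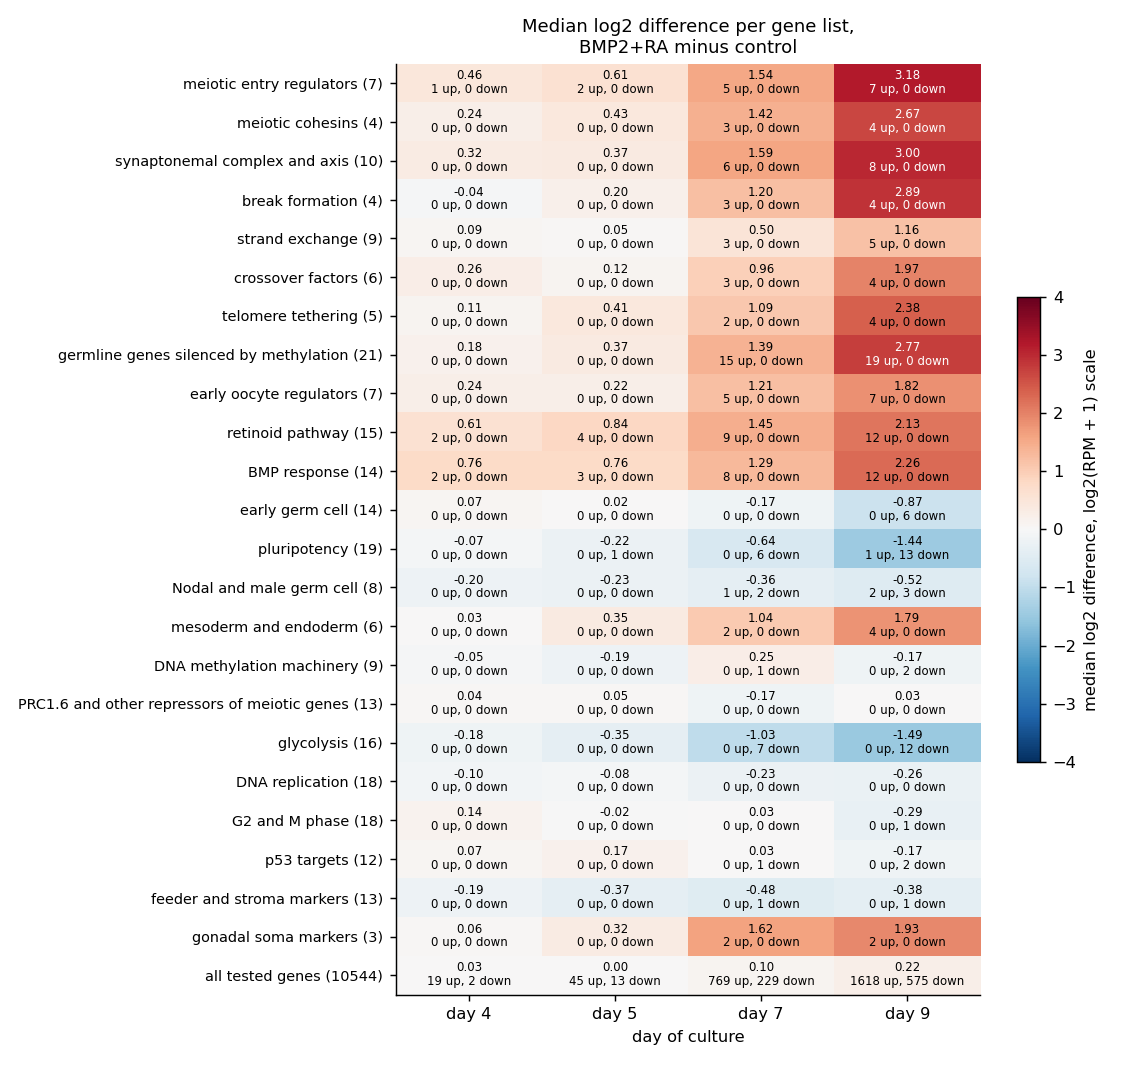
Median log2 change (B2RA minus control, colour) of the tested members of each gene list (rows, number tested in brackets) at culture days 4, 5, 7 and 9 (columns), with the number of members called higher (up) and lower (down) in each cell. The retinoid and BMP lists had medians of 0.61 and 0.76 at day 4, where the lists for break formation and strand exchange were at -0.04 and 0.09, and at day 7 those were at 1.20 and 0.50. In that order 10 of 15, 4 of 14, 4 of 4 and 2 of 9 members reached the filter only through B2RA libraries. Medians over such members support no direction.

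Pluripotency and glycolysis genes fell. Of 19 tested pluripotency genes, 1 was higher and 13 were lower at day 9, and 0, 1 and 6 had been lower at days 4, 5 and 7 (medians -0.07, -0.22, -0.64 and -1.44). With TMM factors 15 were lower and none was higher at day 9. Nanog was at 58.5, 72, 70.0 and 74 RPM in B2RA cells and 208, 236, 221 and 318 RPM in control cells at day 9, without overlap (change -1.81 ± 0.33, adjusted p = 3.9e-06). Its change was 0.14 at day 4 and -0.69 at day 7, neither called. Pou5f1, Sox2 and Tcl1 changed by -1.44, -1.66 and -2.12. Tdgf1, which encodes a co-receptor for Nodal, was at 4.71, 9.61, 7.32 and 10.3 RPM in B2RA cells and 73.9, 124, 41.3 and 90.2 RPM in control cells (change -3.16 ± 0.45). The higher gene was Hesx1, which was lower at day 5 (-1.69) and higher at day 9 (1.11, under 1 with TMM factors and edgeR). Of 16 tested glycolysis genes 12 were lower at day 9 and 7 at day 7, none higher (median -1.49 at day 9), and 16 were lower with TMM factors. Eno1, which encodes enolase, was at 136, 258, 101 and 145 RPM in B2RA cells and 475, 865, 412 and 610.3 RPM in control cells (change -1.91 ± 0.31). The lowest control library of Eno1 was above the highest B2RA library. Genes of DNA replication showed no call among 18 tested (1 lower with TMM factors), and of 18 genes of G2 and M phase only Aurkb was lower.

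The largest falls at day 9 were in genes with other roles. Nnat, an imprinted gene of calcium handling, was at 2.35, 1.31, 0 and 3.31 RPM in B2RA cells and 121, 66.8, 32.8 and 23.8 RPM in control cells (change -4.41 ± 0.49, adjusted p = 4.7e-13). Sox11, a transcription factor gene of neural progenitors, was at 3.14, 0.873, 0.732 and 1.47 RPM in B2RA cells and 102, 52.1, 7.48 and 30.5 RPM in control cells (change -3.85 ± 0.51). Rab25, which encodes an epithelial trafficking protein, was at 0.393, 3.49, 2.2 and 1.47 RPM in B2RA cells and 22.1, 54.9, 20.6 and 37.6 RPM in control cells (change -3.6 ± 0.36). The B2RA libraries held few reads of any of the 3 genes, and the controls varied among themselves without reaching down to the B2RA libraries. Krt7, Grb7 and Fhl2 changed by -2.95, -2.93 and -2.8. Dcx had no read in the B2RA libraries and 131 reads in the control libraries, at least 41.7-fold lower. Otx2, a gene of the epiblast and anterior neural plate, is outside the rule for named genes. It was lower from day 5 and was at 1.57, 0, 2.93 and 2.58 RPM in B2RA cells and 14.48, 25.4, 11 and 28.8 RPM in control cells at day 9 (change -3.0 ± 0.44).

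Early germ cell genes fell late and by less. Of 14 tested, none was called at days 4, 5 or 7 and 6 were lower at day 9 (8 with TMM factors), with a median of -0.87. Tfap2c, a factor of germ cell specification, was at 29.8, 48.9, 81.3 and 48.2 RPM in B2RA cells and 114, 98.2, 137 and 126 RPM in control cells at day 9 (change -1.25 ± 0.31). Ifitm1 changed by -1.83. Dppa3, whose reporter was used to sort the cells, was at 440.4, 337, 575 and 563 RPM in B2RA cells and 909, 816, 1084 and 944 RPM in control cells, and its change of -0.99 lay just short of the size needed for a call. Kit, the receptor for stem cell factor, was not called (0.46). Markers of other cell types moved too. The summed level of 20 mesoderm and endoderm genes was 88.3 to 317 RPM in B2RA cells and 32 to 61.4 RPM in control cells at day 9, with 4 of 6 tested members higher (Hand1, Gata4, Gata6 and Krt8). The filter was reached only through B2RA libraries by 5 of the 6, so the count of higher members supports no direction. B6 B2RA replicate 2 was highest for Gata4 (35.3, 78.6, 5.86 and 17.7 RPM in B2RA cells) and Sox17 (4.32, 25.8, 0 and 1.47 RPM in B2RA cells). T and Cer1 were at 0 in every B2RA library of day 9, whereas Mixl1 had 8 reads and Mesp1 4 reads in the B2RA libraries and 0 in the control libraries. Gonadal soma markers summed to 35.9 to 88.2 RPM in B2RA cells and 11.7 to 24.4 RPM in control cells, of which Wnt4 (3.01) and Inha (1.93) were higher, while Amh was at 0 in all 8 libraries and Nr5a1 was at most 0.437 RPM. The filter was reached only through B2RA libraries by 2 of the 3 tested gonadal soma markers. Foxl2 had 9 reads in the B2RA libraries and 0 in the control libraries, at least 3.14-fold higher against a floor of 3 reads over the group. Their part in the other changes was not tested.

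The size of the response differed between days 5 and 7 and again between days 7 and 9. No gene was called for a difference between the day 5 and day 4 responses by limma (92 genes, 0.873%, at an unadjusted p under 0.05, 0 with edgeR). Between days 7 and 5 the response differed in 83 genes (0.787%), 77 upward and 6 downward, and between days 9 and 7 in 123 (1.17%), 114 upward and 9 downward. Without F6 control replicate 2 of day 5 the earlier count was 40. The excess of upward steps was smaller on other scalings, with 79 upward and 63 downward and then 124 upward and 118 downward by edgeR on the recovered reads, and 56 and 11 and then 82 and 27 with TMM factors. Cited1, a cofactor gene of transcription, was at 0.429, 5.05, 1.24 and 1.73 RPM in B2RA cells and 1.56, 0.806, 0 and 1.84 RPM in control cells at day 5. At day 7 it was at 23, 58.6, 15.2 and 18.1 RPM in B2RA cells and 2.43, 1.13, 1.67 and 2.11 RPM in control cells, a step in response of 2.71 (adjusted p = 0.0116, lost with edgeR at 0.155). Morc1, which encodes a repressor of transposons in male germ cells, stepped down by -1.74 (adjusted p = 0.00435). It was at 96.6, 78, 72.1 and 70.5 RPM in B2RA cells and 99.9, 79, 83.2 and 75.3 RPM in control cells at day 5, and at 33.4, 44.9, 20.3 and 23.3 RPM in B2RA cells and 94.9, 131, 98.8 and 102 RPM in control cells at day 7. Both genes overlapped between treatments at day 5 and were apart at day 7. Between days 7 and 9 the largest step among named genes was in Pet2, at 4.64. It was at 0, 1.52, 1.09 and 1.62 RPM in B2RA cells and 2.08, 2.26, 2.5 and 1.76 RPM in control cells at day 7, and at 27.1, 14.8, 35.5 and 23.6 RPM in B2RA cells and 0, 0, 1.07 and 2.48 RPM in control cells at day 9. Tktl1, a transketolase-like gene, had a step of 3.68. Zfp541, which encodes a meiotic chromatin factor, had a step of 3.51 that edgeR did not call (adjusted p = 0.124). It was at 4.96, 2.29, 5.45 and 6.8 RPM in B2RA cells and 0.347, 0, 0 and 0.703 RPM in control cells at day 7, and at 62.8, 71.2, 53.8 and 52.6 RPM in B2RA cells and 0.381, 0, 0 and 0.355 RPM in control cells at day 9.

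The responses of the 2 clones were set side by side. At day 9 limma called 1880 genes in B6 (17.8%) and 1983 in F6 (18.8%), and of the 1618 higher and 575 lower genes of the pooled response 988 and 304 were called in each clone alone. The higher and lower calls were 1383 and 497 in B6 (881 and 870 with TMM factors) and 1485 and 498 in F6 (944 and 851 with TMM factors). The sign was the same in both clones for 1616 of the higher and 574 of the lower genes, which choosing genes by the mean of both clones largely fixes. The Pearson correlation of the 2 responses, which share no library, was 0.864 across 10544 genes, a description over genes that are not independent. Differences between the clones were called by limma for 2 genes at day 7 (0.019%) and for 0 genes at days 4, 5 and 9, where 91 (0.863%), 75 (0.711%) and 236 (2.24%) genes had an unadjusted p under 0.05. A missing call does not show that the clones respond alike. Car4, which encodes a carbonic anhydrase, was one of them. It was at 36.5, 104, 9.08 and 12.6 RPM in B2RA cells and 4.17, 6.77, 18.8 and 16.5 RPM in control cells at day 7, so that it was above the controls in B6 and not in F6 (difference 3.97 ± 0.85, adjusted p = 0.048, lost when any of 7 libraries was left out). The other was 2610017I09Rik, which is outside the rule for named genes. Without B6 B2RA replicate 1 the B6 count was 1110, that replicate being 1 of only 2 in its group.

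**Figure D4:**
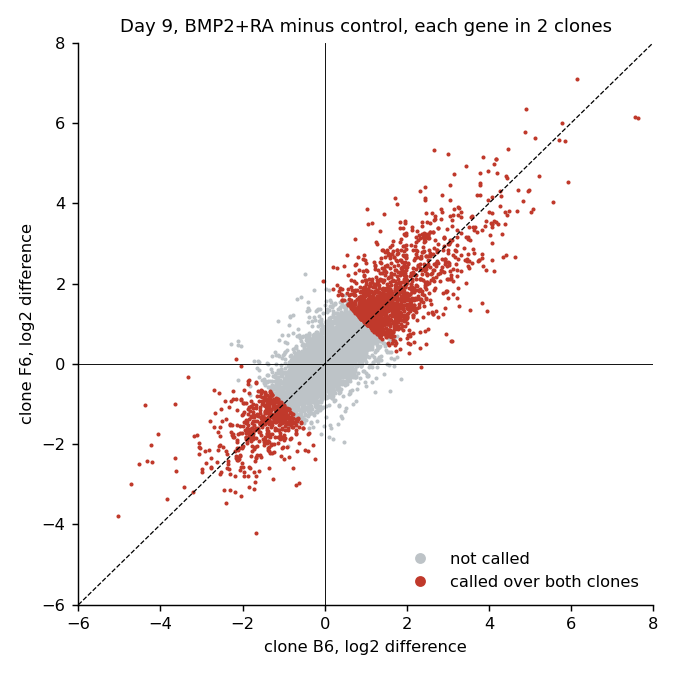
Response at day 9 (log2 change, B2RA minus control) in clone B6 (x axis) and clone F6 (y axis), 1 point per tested gene, with genes called in the pooled response in red, other genes in grey and a dashed line where both clones are equal. The points spread along the dashed line, with a Pearson correlation of 0.864.

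The B2RA response of the Stra8 knockout was larger than that of the Zglp1 knockout for some meiotic genes. How many depended on the tool. Larger and smaller refer to signed changes in this comparison, so a deeper fall counts as smaller. The difference between the 2 responses at day 9, tested as a contrast with no shared library, was called for 855 of 10648 genes (8.03%), 673 larger (6.32%) and 182 smaller (1.71%) in the Stra8 knockout (median over all tested genes 0.12). The count was 476 without Zglp1 knockout E5 B2RA replicate 2 and 1478 without E5 B2RA replicate 1, and edgeR called 316, 148 larger and 168 smaller (TMM factors 518 and 290). Of the lists, 4 of 4 meiotic cohesins, 7 of 10 synaptonemal complex genes, 14 of 21 methylation-silenced germline genes and 5 of 7 early oocyte regulators had a larger response in the Stra8 knockout, and none had a smaller one. With edgeR the larger ones were 1, 5, 10 and 1 of these lists, and again none was smaller. The response was also larger for 2 of 7 meiotic entry regulators (2 with edgeR), 3 of 4 genes of break formation (0 with edgeR), 6 of 9 of strand exchange (1 with edgeR), 3 of 6 crossover factors (1 with edgeR) and 2 of 5 telomere genes (0 with edgeR). Of 16 glycolysis genes 4 had a lower signed change in the Stra8 knockout with either tool, and none had a higher one. Glycolysis genes fell there (median -1.49, 0 of 16 above 0), so these falls were deeper than in the Zglp1 knockout or absent from it. Of the retinoid list 2 of 15 were larger (Cyp26a1 and Stra6), and of the BMP list 1 of 14 was larger (Id3) and 1 smaller (Msx1). With edgeR none of either list was larger. The filter here used only the libraries compared. Members that reached it only through Stra8 knockout cells with B2RA, such as Figla, were favoured to have the larger response there. Counts over such members support no direction, and how many each list held was not counted. Tex101 was at 467, 515, 261 and 278 RPM in Stra8 knockout cells with B2RA, against 21.3, 40.6, 29.3 and 34 RPM in Zglp1 knockout cells with B2RA. The controls of the Zglp1 knockout were at 5.64, 4.3, 2.49 and 3.7 RPM, and the difference of responses was 4.16 ± 0.58 (adjusted p = 6.45e-08). Sycp3 was at 55.9, 100.4, 49.8 and 53.5 RPM in Zglp1 knockout cells with B2RA, below all 4 Stra8 knockout libraries (difference 2.83 ± 0.51, adjusted p = 3.71e-05). Rec8 was at 211, 219, 229 and 214 RPM in Zglp1 knockout cells with B2RA and 39.9, 47.4, 35.3 and 24.1 RPM in their controls (difference 1.55 ± 0.43, adjusted p = 0.00939). Figla, at 1.32, 0, 0.302 and 0.673 RPM in Zglp1 knockout cells with B2RA, differed by 4.13 (adjusted p = 1.81e-09). Id1 did not pass the test, with a difference of 0.41 ± 0.57 (adjusted p = 0.712), and neither did Rarb (-0.04 ± 0.64, adjusted p = 0.977). Zfp541 had the largest difference among named genes at 4.75, and its call and those of Mei1 and Lonrf3 were lost with edgeR (adjusted p = 0.996, 0.92 and 0.067). Hesx1 responded in opposite directions, with 1.11 in the Stra8 knockout and -2.52 in the Zglp1 knockout (difference 3.63 ± 0.61, adjusted p = 1.02e-05). The rise of Hesx1 in the Stra8 knockout was 0.84 with TMM factors and 0.95 with edgeR. Its day 9 call there was lost when any of 5 libraries was left out. Among smaller responses, Vegfa was at 20.0, 25.3, 12.4 and 8.83 RPM in Stra8 knockout cells with B2RA and 29.7, 25.4, 33.5 and 32.7 RPM in their controls, and at 41.6, 43.6, 52.5 and 35 RPM in Zglp1 knockout cells with B2RA and 29.3, 13.4, 13.3 and 22.2 RPM in their controls (difference -2.09).

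**Figure D5:**
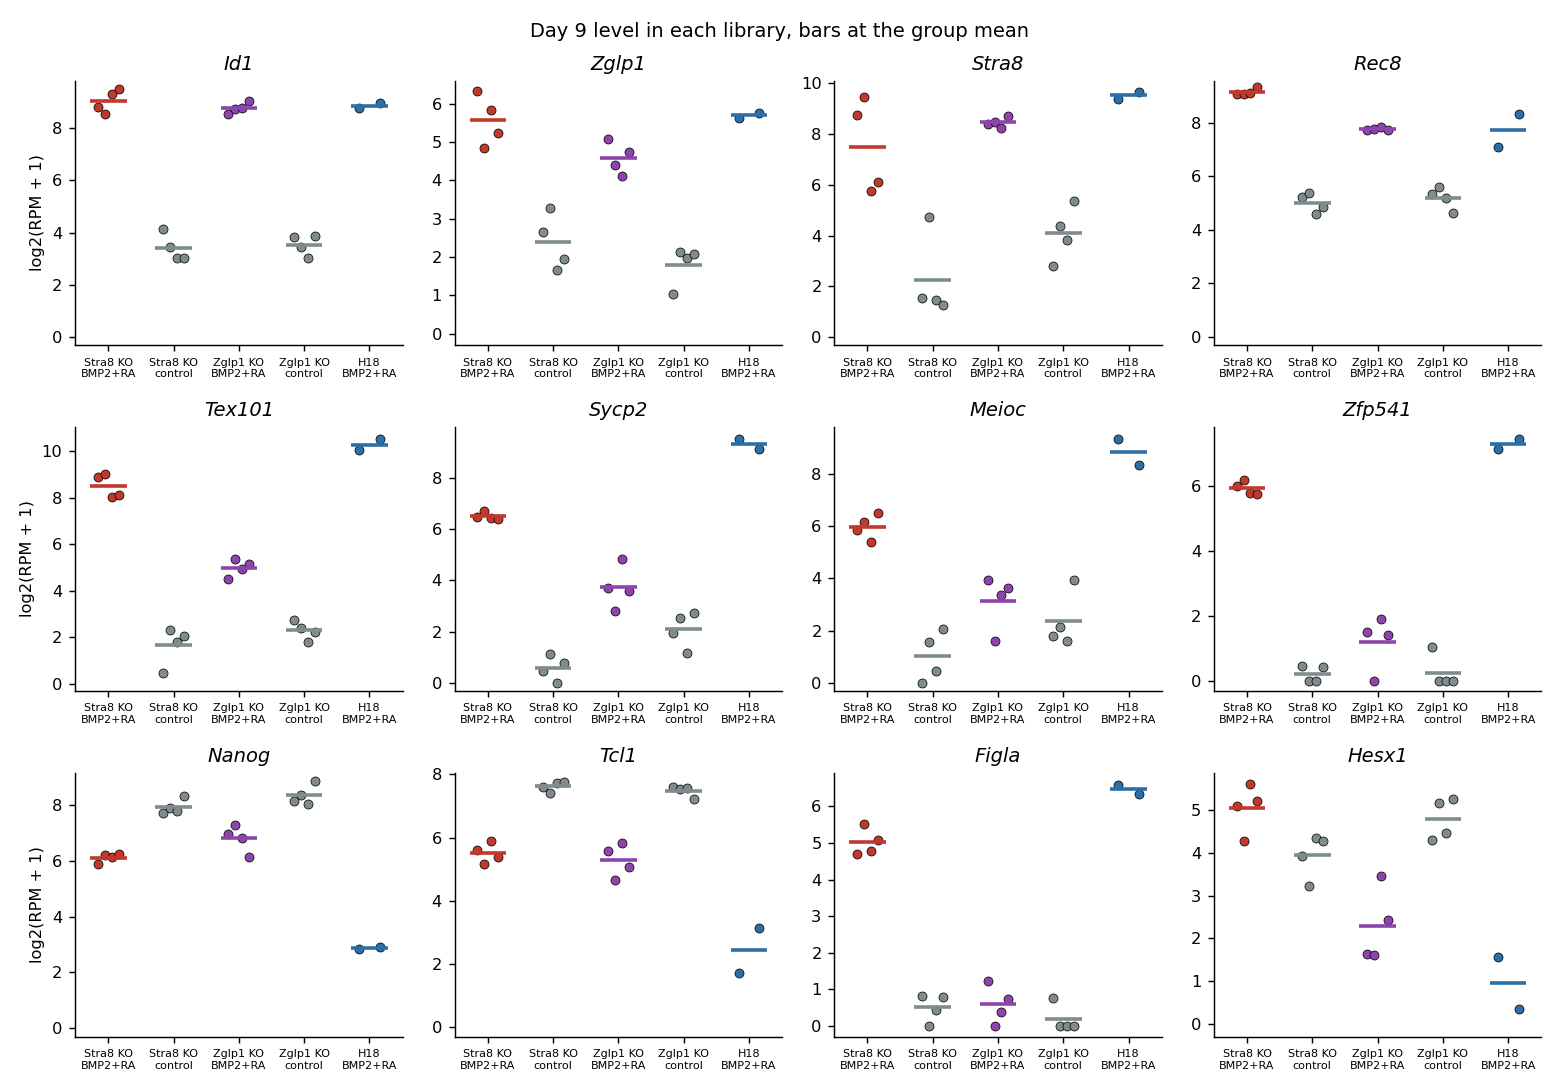
Day 9 levels on a log2(RPM + 1) axis (y) for selected genes in Stra8 knockout, Zglp1 knockout and H18 libraries (x), with B2RA and control libraries as separate columns, 1 point per library and short bars at the group means. Sycp2 and Tex101 were higher in Stra8 knockout than in Zglp1 knockout cells with B2RA, and higher again in H18.

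Against the parental line with the same treatment, the Stra8 knockout had lower meiotic genes and higher pluripotency genes at day 9. No control library of H18 at that day was used here, so this compares levels and not responses. Limma called 2516 of 10131 genes (24.8%), 1147 higher (11.3%) and 1369 lower (13.5%) in the Stra8 knockout. The filter here used only the libraries compared. A member that reached it only through H18 had to be lower in the knockout, and one only through the knockout had to be higher. Counts over such members support no direction. Meiosin reached it through H18. Tested members of meiotic entry, break formation and crossover were 8, 6 and 8, against 7, 4 and 6 within the knockout. Of the lists, 6 of 8 meiotic entry regulators, 9 of 10 synaptonemal complex genes, 5 of 6 genes of break formation and 6 of 8 crossover factors were lower, and none was higher. Sycp3 was at 379, 335, 209 and 317 RPM in Stra8 knockout cells, against 1879 and 1514 RPM in H18 cells (difference -2.47 ± 0.44, adjusted p = 3.32e-06). Rad21l, a meiotic cohesin gene, was at 6.67, 12.2, 4.39 and 12.1 RPM in Stra8 knockout cells, against 196 and 185 RPM in H18 cells (difference -4.38 ± 0.41). Both differences separated every library, and both genes were nonetheless called higher with B2RA within the knockout. Rec8 ran the other way, at 537, 540.1, 554 and 643 RPM in Stra8 knockout cells, against 138 and 321 RPM in H18 cells (difference 1.43 ± 0.37, adjusted p = 0.00112). The germline genes silenced by methylation were mixed, with 3 higher and 7 lower of 21. Of the early germ cell list 12 of 14, of pluripotency genes 14 of 16 and of glycolysis genes 14 of 16 were higher in the Stra8 knockout, and none was lower. Nanog was at 58.5, 72, 70.0 and 74 RPM in Stra8 knockout cells, against 6.19 and 6.46 RPM in H18 cells (difference 3.24 ± 0.41, adjusted p = 2.49e-10), although B2RA had lowered it relative to the knockout's own controls. Id1 and Rarb did not pass the test, with differences of 0.17 ± 0.49 (adjusted p = 0.801) and -0.97 ± 0.56 (adjusted p = 0.151), and Cyp26a1 was lower in the knockout (-2.19 ± 0.54, adjusted p = 0.000591; H18 at 149 and 388 RPM).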

How the data were processed

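The deposited table gives levels as RPM computed by the authors, and columns where transgene rows enter the total hold a signal on the same scale, as deposited. Per the labels, 3' ends of mRNA were amplified from 1 ng of total RNA. The build was mm10, and the tools were HTSeq 0.9.1, TopHat2 2.1.0, cutadapt 1.9.1, SAMtools 1.3 and Bowtie 1.1.2, per the submitters' processing notes. The role of each tool, the annotation and the use of strand in counting are not given in the sources used here, so overlapping genes and near-identical copies are uncertain. Of 195 value columns, 194 matched a sample and 1 did not and was not used. An empty extra cell had shifted 3 lines, which were realigned.

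Log2(RPM + 1) values of 191 PGCLC libraries in 98 groups entered one limma 3.58.1 model (R 4.3.3), with a mean-variance trend and robust estimates. Clone responses were averaged with equal weight. A gene was tested at 10 RPM in at least 2 libraries of the groups compared. Whole read counts were recovered from the steps between the authors' RPM values (100% whole within 0.05 of a read) for edgeR 4.0.16. Reads carry no stated molecular identifiers, so floors cover counting error only. Both tools were tested on simulated data. Alternatives were pseudocounts of 0.5 and 5, other filters on low values, TMM factors, the groups compared alone, a replicate term, edgeR, and leaving out each library.

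The comparisons and gene lists were chosen with earlier results of these data known. Named genes were Stra8, Zglp1, list members, and the largest changes of each comparison where the higher group averaged 20 RPM or more. For the responses at days 4 and 9 the treatments also had to be apart within both clones. Predicted genes and Rik clones were counted but not named, unless said, and the values of a few other genes are not reported here. Every member of the 24 lists is covered by the counts, and members under the filter were not tested.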

Additional observations from a re-analysis of the deposited data

Results flagged for a closer look

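In 3 of the 66 groups of 4 libraries examined, 1 library stood far from the others by Dixon's test, which chance does in about 1 in 20 groups. Mdk was at 103 RPM in B6 control replicate 1 at day 4, against 72.2 to 75.1 RPM in the other controls. Dpep3 was at 74.7 RPM in B6 B2RA replicate 2 at day 9, against 55.3 to 57.4 RPM in the other B2RA libraries. Stra8 was at 25.9 RPM in B6 control replicate 2 at day 9, against 1.42 to 1.91 RPM in the other controls.

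Differences between responses that passed the test are listed by their change on the log2 scale. Between the Stra8 and the Zglp1 knockout at day 9, 855 genes differed. The response was larger in the Stra8 knockout for Zfp541 by 4.75, Lonrf3 by 4.34, Sycp2 by 4.24, Mei1 by 4.19, Meioc by 4.18 and Tex101 by 4.16. As a signed change it was smaller for Lck (-2.65), Syt5 (-2.65), Hamp (-2.62), Dnm1 (-2.28), Vegfa (-2.09) and Rarres2 (-2.02). With edgeR the calls of Hamp (adjusted p = 1) and Rarres2 (adjusted p = 0.226) were lost, as were those of Zfp541, Mei1 and Lonrf3, and leaving out any of 11 libraries ended that of Rarres2. Hamp, which encodes the iron regulator hepcidin, was at 10.6, 6.11, 1.1 and 4.05 RPM in Stra8 knockout cells with B2RA, against 40.0, 27.4, 29.6 and 34.3 RPM in Zglp1 knockout cells with B2RA, and was at 0 in the controls of both.

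Between clones B6 and F6 at day 7, 2 genes differed, and Car4 did so by 3.97. Between the responses of days 7 and 5, 83 genes differed. The response was larger at day 7 for Fam189a2 by 2.86, Meioc by 2.79, Cited1 by 2.71, C1ql1 by 2.61, Hesx1 by 2.47 and Dbn1 by 2.46, and it was lower for Morc1 (-1.74), Zfp296 (-1.37), Csrp2 (-1.14) and Mkrn1 (-1.01). The calls of Meioc and Cited1 were lost with edgeR, and leaving out any of 12 libraries ended that of C1ql1, any of 8 those of Hesx1 and Mkrn1, any of 6 that of Zfp296, any of 3 that of Cited1 and 1 that of Dbn1. Between days 9 and 7, 123 genes differed. The response was larger at day 9 for Pet2 by 4.64, Tktl1 by 3.68, Mei1 by 3.54, Zfp541 by 3.51, Dpep3 by 3.48 and Mageb4 by 3.43, and it was lower for Dcx (-2.43), Syt5 (-1.81), Sox15 (-1.30), Gstm1 (-1.26) and Plekhf1 (-1.25). The calls of Dcx, Dpep3, Mei1 and Zfp541 were lost with edgeR (adjusted p = 1, 0.185, 0.841 and 0.124), and leaving out any of 9 libraries ended that of Sox15, any of 8 those of Syt5 and Plekhf1 and any of 2 that of Gstm1. Mageb4 belongs to a family of similar copies, so its count is uncertain.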

How the results depend on the processing

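Among the named genes whose calls were followed, none reversed its direction under any alternative that was run. List members that were not called were not followed. With TMM factors 4 of 5 telomere genes were above 0 at day 9, against 5 on RPM. Of 148 genes named for day 9, 126 kept their call under every alternative, and 22 lost it under at least 1, 18 of them when a library was left out, 12 with a pseudocount of 5, 8 with TMM factors and 8 with edgeR. Of 12 genes named for day 4, 8 kept their call throughout, as did 12 of 12 for the H18 comparison, 7 of 12 for the Zglp1 comparison, and 3 of 10 and 3 of 12 for the day 7 and day 9 steps. Counts of calls moved more. With only the groups compared in the fit, they were 40 at day 4, 112 at day 5, 244 and 313 for the steps from day 5 to 7 and from day 7 to 9, and 304 for the Zglp1 comparison. With edgeR they were 99 at day 5, 1 for the clone difference at day 7, 142 and 242 for the steps and 316 for the Zglp1 comparison. With a pseudocount of 5 they were 482 at day 7, 5 for the clone difference at day 9 and 134 and 208 for the steps. Without a filter they were 3361 of 20582 genes at day 9, 5 and 42 for the clone differences at days 7 and 9 and 227 for the later step. The clone difference at day 7 gave 0 genes with a pseudocount of 0.5 or with the filter on the libraries compared. The cause was not tested, except that dropping the filter adds genes.

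Leaving out each library in turn gave 8 to 21 calls at day 4, 35 to 58 at day 5, 796 to 993 at day 7 and 1955 to 2279 at day 9. It gave 1110 to 1653 in B6 and 1418 to 1718 in F6 at day 9, 0 for the clone differences at days 4 and 5, 0 to 1 at day 7 and 0 to 2 at day 9. It gave 0 for days 5 against 4, 40 to 86 and 86 to 144 for the steps, 476 to 1478 for the Zglp1 comparison and 1977 to 2496 against H18. A lone library left in a group was assumed to vary like the other groups.

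Same-numbered libraries of the 2 treatments were not treated as paired, since the correlation of their deviations was not above 0.1 in every clone and day, although it was in 6 of 8. It was 0.121, 0.144, 0.41 and 0.227 in B6 and -0.0893, 0.185, 0.084 and 0.178 in F6 over days 4, 5, 7 and 9. With a replicate block the calls were 24, 75, 1024 and 2204 at those days, 1944 in B6 and 2059 in F6 at day 9, 0, 0, 2 and 0 for the clone differences, 0, 106 and 160 for the differences between days, 942 for the Zglp1 comparison and 2548 against H18, and the block ended no call of a gene named for day 9. At 1241239 reads or more, genes under about 10 RPM were not tested, and their absence was not shown.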

Other observations

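Of 8 tested genes of Nodal signalling and the male germ cell, 2 were called higher and 3 lower at day 9 in B2RA cells than in control cells (1 higher and 3 lower with TMM factors). Piwil4, which encodes a piRNA-binding protein, changed by 3.07, and Tdrd5, which encodes a Tudor domain protein of the same pathway, by 1.12. The change of Tdrd5 was 0.84 with TMM factors and 0.90 with edgeR, and its call was lost when any of 3 libraries was left out. Lefty2, which encodes an inhibitor of Nodal, changed by -1.16, Dnmt3l by -1.36 and Morc1 by -2.56. The Lefty2 call was lost when any of 5 libraries was left out (-0.61, adjusted p = 0.35 in limma without B6 B2RA replicate 2) and fell below a change of 1 with a pseudocount of 5. Of 12 tested targets of p53, Pmaip1 (-2.48) and Zmat3 (-1.04) were lower and none was higher. The Zmat3 call was lost when any of 4 libraries was left out and fell below a change of 1 with a pseudocount of 5 (-0.95). Of 13 tested feeder and stroma markers, 1 was lower.

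In cells with B2RA at day 9, Asb9 was at 19.6, 14.8, 57.5 and 46.7 RPM in the Stra8 knockout, against 0.326 and 0 RPM in H18 (difference 4.75 ± 0.56, limma adjusted p = 2.46e-11). Liph, which encodes a lipase, was at 47.9, 30.1, 42.1 and 42 RPM in the Stra8 knockout, against 1.95 and 0.281 RPM in H18 (difference 4.4 ± 0.28). C1ql1 and Ephx2 were also higher in the knockout, by 3.67 and 3.48. Rad51ap2 was at 7.07, 6.99, 0 and 2.21 RPM in the Stra8 knockout, against 276 and 136 RPM in H18 (difference -5.68 ± 0.41, limma adjusted p = 9.77e-22). Reg2, Tsga10, Tex16 and the row named Mir30a were lower in the knockout too, with differences of -4.17, -4.1, -4.09 and -4.23. Within the knockout, Tex16 had 113 reads with B2RA and none in controls, at least 39.4-fold higher, and Rad51ap2 had 40 reads and none, at least 14-fold higher, against a floor of 3 reads over the group.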
